A study of Mus musculus with 6 samples.

Results

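F-box proteins are the subunits that choose the targets of SCF ubiquitin ligases. In such a ligase the F-box motif binds the adaptor Skp1, Skp1 binds the cullin scaffold *Cul1*, and the RING protein *Rbx1* brings in the ubiquitin-conjugating enzyme. The rest of the F-box protein holds the substrate, and the letter after Fbx in the gene symbol names that part: w for WD repeats, l for leucine-rich repeats and o for other or no known repeats. Timed destruction of cell cycle regulators by SCF ligases accompanies meiotic maturation, and several Fbxw genes of mouse are known as oocyte transcripts.

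All genes whose symbol begins with Fbxo, Fbxl or Fbxw and a number were taken from the deposited FPKM table, apart from *Fbxo5* and *Fbxo43*. This gave 74 of the 25899 symbols in the table, of which 35 were Fbxo, 18 Fbxl and 21 Fbxw genes. The 13 genes *Fbxw13* to *Fbxw22*, *Fbxw24*, *Fbxw26* and *Fbxw28* are called the cluster here, and the remaining 61 genes are called the other members. The rule reads the symbols and uses no measured value. Position did not match the name cluster for every gene: 12 of the 13 lay side by side on chromosome 9, all on the minus strand, within 607 kb (109139454 to 109746089, GRCm38), while *Fbxw17* lay on chromosome 13 (50417864 to 50433780, plus strand).

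The libraries came from oocytes of aged female (AF) mice, labelled CD1 and 58 weeks old, with 3 libraries of non-polysomal (NP) RNA and 3 of polysomal (P) RNA. The methods of the study name ICR mice and a somewhat younger age for the aged females, and the labels are followed here. Females had received PMSG, and the 200 oocytes of each sample were released from IBMX arrest, cultured for 180 min until after nuclear envelope breakdown (post-NEBD) and held for 10 min in cycloheximide (0.1 mg/ml), which keeps ribosomes on the mRNA. The lysate was run on a sucrose gradient, and its fractions were combined into NP, which holds free RNA and monosomes, and P. Both groups thus share age, strain, hormone and cycloheximide, and differ in gradient position. Each library pools its oocytes, and libraries of young females were not analysed here.

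FPKM counts fragments relative to exon length and to the mapped reads of the library, so levels of different genes can be set side by side. Such ranks depend on the length taken for each gene, which is not given. In GENCODE M21 the exons of *Fbxw19* cover 3487 bases and its transcript used here 1483, against 1488 for both in *Fbxw24*. Of 12 oocyte marker genes, 12 were above 0 in every NP library and at least 11 in every P library, and their summed level was between 4843 and 13906 FPKM. Among 9 granulosa cell markers only *Cyp19a1* passed 1 FPKM (7.15, 22.5 and 104.1 in NP and 15.4, 0 and 0 in P), and 7 blood markers summed to at most 0.643 FPKM. The depth recovered from the steps between low values was lowest in AF P replicate 1 (163175 reads) and highest in AF NP replicate 2 (18048593 reads), and the other libraries lay between 1140045 and 12146824 reads. For a transcript of 2 kb, 3 reads are worth 9.19 FPKM in AF P replicate 1 and at most 1.32 FPKM in the other libraries. The FPKM of all symbols summed to between 597261 and 633110 in NP and to between 246182 and 393876 in P, so the summed level was lower in every P library.

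Start-proximal sequences show how alike the genes of the chromosome 9 array are. RefSeq promoter windows of GRCm38.p6, from 250 bases before to 50 after the start, were found for 11 of the 13 cluster genes. Below are the 130 bases before the start of the 4 genes with the highest levels (*Fbxw24*, *Fbxw16*, *Fbxw15* and *Fbxw19*), of the near-identical pair *Fbxw14* and *Fbxw28*, of *Fbxw20*, which had the lowest P against NP ratio of the cluster, and of *Fbxw17*, the gene on the other chromosome. They lie at chr9:109626060-109626189 (*Fbxw24*), chr9:109449141-109449270 (*Fbxw16*), chr9:109568263-109568392 (*Fbxw15*), chr9:109495855-109495984 (*Fbxw19*), chr9:109287677-109287806 (*Fbxw14*), chr9:109339660-109339789 (*Fbxw28*), chr9:109234755-109234884 (*Fbxw20*) and chr13:50417734-50417863 (*Fbxw17*), on the minus strand except for *Fbxw17*, and capitals mark CAGCTG and TTTAAAA. Sequences run 5′ to 3′.
Fbxw24: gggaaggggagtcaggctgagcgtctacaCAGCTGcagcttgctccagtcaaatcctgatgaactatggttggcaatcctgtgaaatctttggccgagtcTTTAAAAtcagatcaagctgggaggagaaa
Fbxw16: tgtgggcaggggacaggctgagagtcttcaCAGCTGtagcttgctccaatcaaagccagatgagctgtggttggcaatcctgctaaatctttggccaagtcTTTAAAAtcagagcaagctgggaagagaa
Fbxw15: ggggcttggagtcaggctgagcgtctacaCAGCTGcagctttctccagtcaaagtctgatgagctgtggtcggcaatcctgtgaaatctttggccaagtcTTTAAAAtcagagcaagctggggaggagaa
Fbxw19: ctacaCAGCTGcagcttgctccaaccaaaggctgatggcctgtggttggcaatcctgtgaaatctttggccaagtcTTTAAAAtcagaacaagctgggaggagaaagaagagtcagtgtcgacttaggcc
Fbxw14: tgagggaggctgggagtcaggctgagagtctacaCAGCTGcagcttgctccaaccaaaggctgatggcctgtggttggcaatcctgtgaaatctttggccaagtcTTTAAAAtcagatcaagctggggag
Fbxw28: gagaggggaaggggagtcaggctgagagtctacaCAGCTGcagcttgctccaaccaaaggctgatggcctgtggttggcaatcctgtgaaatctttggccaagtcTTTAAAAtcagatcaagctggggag
Fbxw20: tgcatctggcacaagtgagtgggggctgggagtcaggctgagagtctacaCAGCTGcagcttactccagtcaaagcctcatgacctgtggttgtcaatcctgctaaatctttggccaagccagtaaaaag
Fbxw17: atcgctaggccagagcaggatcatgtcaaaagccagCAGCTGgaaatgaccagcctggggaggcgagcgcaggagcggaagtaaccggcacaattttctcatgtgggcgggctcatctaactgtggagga

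Windows of 10 chromosome 9 genes were between 84.9% and 97.7% identical in pairs (median 91.2%, 45 pairs), with the highest value for *Fbxw14* and *Fbxw28*. The longest exact run that *Fbxw17* shared with any of them was 9 bases. The E-box CAGCTG, which reads the same on both strands, was in 11 of 11 windows and in 16.1% of all 27025 promoter windows of that length. TTTAAAA, searched on both strands, was in 9 of 11, all but *Fbxw20* and *Fbxw17*, and in 8.65% of all windows. TATAAA was in 0 of 11 and in 14.2% of all windows, and TAATTG in 0 of 11 and in 8.15%. These letters were picked with the cluster windows in view, and windows that are this alike are not separate cases.

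The transcripts of the array were alike as well, which bears on how well reads can be assigned. Over the 66 pairs of chromosome 9 genes, GENCODE M21 transcripts were between 79.4% and 99.2% identical (median 84.2%). *Fbxw14* and *Fbxw28* were 99.2% identical over 1619 bases, and *Fbxw22* was 93.1% identical to *Fbxw14* and 93.3% to *Fbxw28*. The share of a transcript's 50-base words that also occur in a transcript of another gene was 67.6% for *Fbxw14* and 66.0% for *Fbxw28*, mostly each other's. It was 26.7% for *Fbxw16*, 17.01% for *Fbxw15* and between 5.77% and 13.2% for the other chromosome 9 genes, while for *Fbxw17* and for 34 of 60 other members it was 0. The highest share among the other members was 44.25% for *Fbxl12*, and it was 34.4% for *Fbxw8*, 27.8% for *Fbxw4* and 22.5% for *Fbxo34*. With 67.6% and 66.0% shared, levels of *Fbxw14* and *Fbxw28* are uncertain one by one and are also given as a sum. Levels of the other genes with shared words carry the same limit to a smaller degree.

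The cluster held most of the summed FPKM of the 74 members, called the summed F-box FPKM here, in both fractions. That sum leaves out *Fbxo5*, *Fbxo43* and F-box genes with other symbols. Its 13 genes took 78.2%, 83.9% and 85.9% of the summed F-box FPKM in AF NP replicates 1, 2 and 3, a mean of 82.6% ± 4.00 (SD, n = 3). In AF P they took 93.9%, 85.5% and 93.5%, a mean of 91.0% ± 4.71 (SD, n = 3). The ranges overlapped only between AF P replicate 2 and AF NP replicate 3. By replicate number the share was higher in P in 3 of 3 pairs, though no source states that pairing outright. In every library all 13 genes were above the median of the 74 members, and the median level over the cluster was between 141 and 645 FPKM against between 0.831 and 5.96 FPKM over the other members.

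The summed level of the cluster overlapped between the fractions, and that of the other members was lower in P. In NP the cluster summed to 7647, 9406 and 7024 FPKM (replicates 1, 2 and 3) and to 13328, 4025 and 7853 FPKM in AF P, so its P libraries lay both above and below NP. The other members summed to 2137, 1808 and 1157 FPKM in NP and to 866, 680 and 546 FPKM in P, and every P library was below every NP library. As a share of all FPKM in the table, the cluster took 1.25%, 1.49% and 1.18% in NP and 3.90%, 1.63% and 1.99% in P, with no overlap. The same share of the other members was 0.349%, 0.286% and 0.194% in NP and 0.253%, 0.276% and 0.139% in P, which overlapped, though it was lower in P for each replicate number. Both sums dropped from NP to P in replicate 2, and since the cluster's share of F-box FPKM overlapped, as given above, a difference between the 2 shifts is not shown. The plot of summed FPKM sets these values beside those of all symbols. A share of FPKM is relative to the library, so more of an mRNA in a fraction and less of all other RNA there cannot be told apart.

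**Figure D1:**
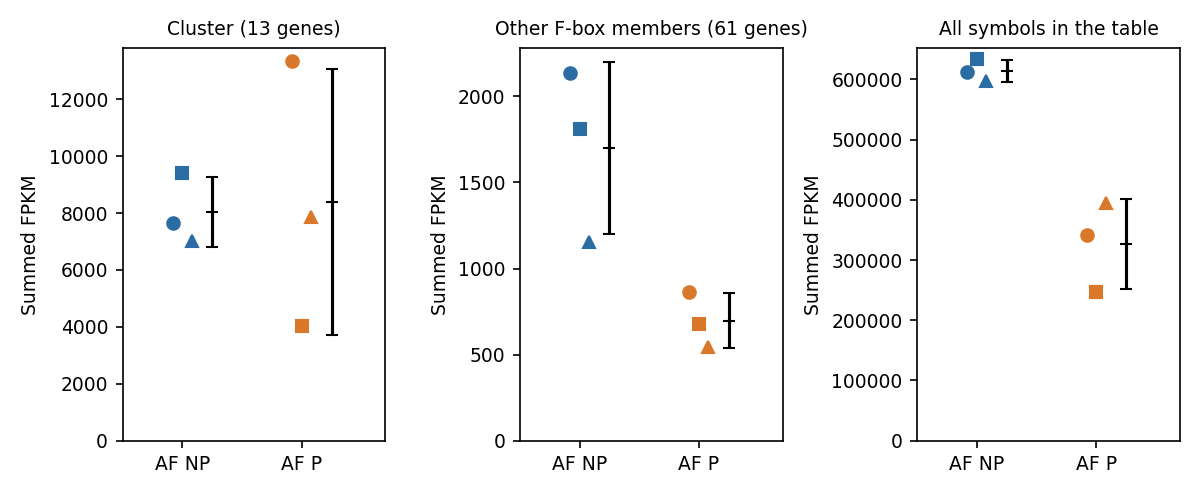
Summed FPKM (y axes, from 0) of the 13 cluster genes, the 61 other F-box members and all symbols in the 3 AF NP (blue) and 3 AF P (orange) libraries, with circles, squares and triangles for replicates 1, 2 and 3 and black bars for the mean ± SD. The cluster's P libraries lie on both sides of NP, between 4025 and 13328, while the other members and all symbols are lower in every P library.

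Among the single genes, *Fbxw24*, *Fbxw16*, *Fbxw15* and *Fbxw19* carried the cluster, with 68.1% to 76.2% of its FPKM in each library. In AF NP replicates 1, 2 and 3, the level of *Fbxw24* (chromosome 9, 109601117 to 109626059) was 1358, 1456 and 1570 FPKM, and in AF P it was 3169, 566.6 and 2457 FPKM. *Fbxw19* (109478570 to 109495875) was at 1277, 804 and 983 FPKM in NP and at 2223, 388 and 1909 FPKM in P. Both were above all NP libraries in AF P replicates 1 and 3 and below all of them in replicate 2. Their log2 ratios of P over NP, on the log2(FPKM + 1) scale, were 0.17 (SE 0.56) for *Fbxw24* and 0.24 (SE 0.60) for *Fbxw19*, with limma adjusted p-values of 0.891 and 0.854. In AF P replicate 1, *Fbxw24* ranked 6 among all symbols of the table, and its rank was between 15 and 46 in the others.

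*Fbxw16* and *Fbxw15* followed another pattern across the P libraries. *Fbxw16* (chromosome 9, 109432319 to 109449140) was at 1543, 1746 and 1421 FPKM in NP and at 2054, 1104 and 780.5 FPKM in P. *Fbxw15* (109552604 to 109568262) was at 1391, 2602 and 1380 FPKM in NP and at 1635, 907.7 and 584.9 FPKM in P. Both were lowest in AF P replicate 3, the library in which *Fbxw24* and *Fbxw19* were high, and their groups overlapped through AF P replicate 1. The log2 ratios were -0.37 (SE 0.50, limma adjusted p = 0.695) and -0.84 (SE 0.52, limma adjusted p = 0.421). The ratio of *Fbxw15* to *Fbxw24* was 1.02, 1.79 and 0.879 in NP and 0.516, 1.6 and 0.238 in P, so the replicates numbered 2 had the highest value in both fractions.

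A middle group comprised *Fbxw18*, *Fbxw26*, *Fbxw28*, *Fbxw14*, *Fbxw21* and *Fbxw22*, all with overlapping groups. *Fbxw18* (109676734 to 109702700) was at 557, 1161 and 421 FPKM in NP and at 1394, 274 and 691 FPKM in P. *Fbxw26* (109717566 to 109746089) was at 265, 333.5 and 304 FPKM in NP and at 683, 141 and 455 FPKM in P. Both had their highest value in AF P replicate 1 and their lowest in AF P replicate 2. The log2 ratios were -0.01 (SE 0.64) and 0.23 (SE 0.69). *Fbxw21* (109139454 to 109162041) was at 261, 197.5 and 143 FPKM in NP and at 253, 112 and 277 FPKM in P, with a log2 ratio of 0.03 (SE 0.72). Of these genes it had the most even levels.

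*Fbxw14* (109270836 to 109287676) and *Fbxw28* (109322886 to 109339659), whose transcripts are nearly the same, summed to 471, 400 and 248 FPKM in NP and to 1203, 276 and 480 FPKM in P. Singly, *Fbxw28* was at 270, 202 and 103.5 FPKM in NP and at 645, 156 and 270.5 FPKM in P, and *Fbxw14* was at 201, 198 and 144 FPKM in NP and at 558, 120 and 209 FPKM in P. *Fbxw22* (109378411 to 109404296), their nearest relative, was at 139, 100.2 and 98.4 FPKM in NP and at 555.5, 87.4 and 88.1 FPKM in P. These 3 genes had the highest log2 ratios of the cluster, 0.75 (SE 0.73) for *Fbxw28*, 0.55 (SE 0.83) for *Fbxw22* and 0.43 (SE 0.74) for *Fbxw14*, and limma adjusted p-values between 0.578 and 0.772. For *Fbxw22* only AF P replicate 1 was above NP. Without that library the log2 ratio was -0.34 for *Fbxw22*, -0.18 for *Fbxw14* and 0.21 for *Fbxw28*.

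*Fbxw20*, *Fbxw13* and *Fbxw17* were lower in every P library than in any NP library. *Fbxw20* (109217432 to 109234754) was at 244, 357.5 and 299 FPKM in NP and at 75.8, 94.8 and 32.3 FPKM in P, a mean of 300 ± 57.0 against 67.6 ± 32.0 (SD, n = 3). Its log2 ratio was -2.25 (SE 0.77), the lowest of the cluster, with a limma adjusted p of 0.165. At the recovered depth these P values stand for about 30, 262 and 121.5 reads. *Fbxw13* (109179227 to 109195975) was at 102, 212 and 120 FPKM in NP and at 68.6, 67.7 and 77.6 FPKM in P, with a log2 ratio of -0.94 (SE 0.79, limma adjusted p = 0.525). *Fbxw17* was at 38.3, 35.4 and 37.1 FPKM in NP and at 14.4, 5.28 and 20.6 FPKM in P, with a log2 ratio of -1.57 (SE 1.03, limma adjusted p = 0.446). It was the lowest gene of the cluster in every library and stood on about 9 reads in AF P replicate 1.

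**Figure D2:**
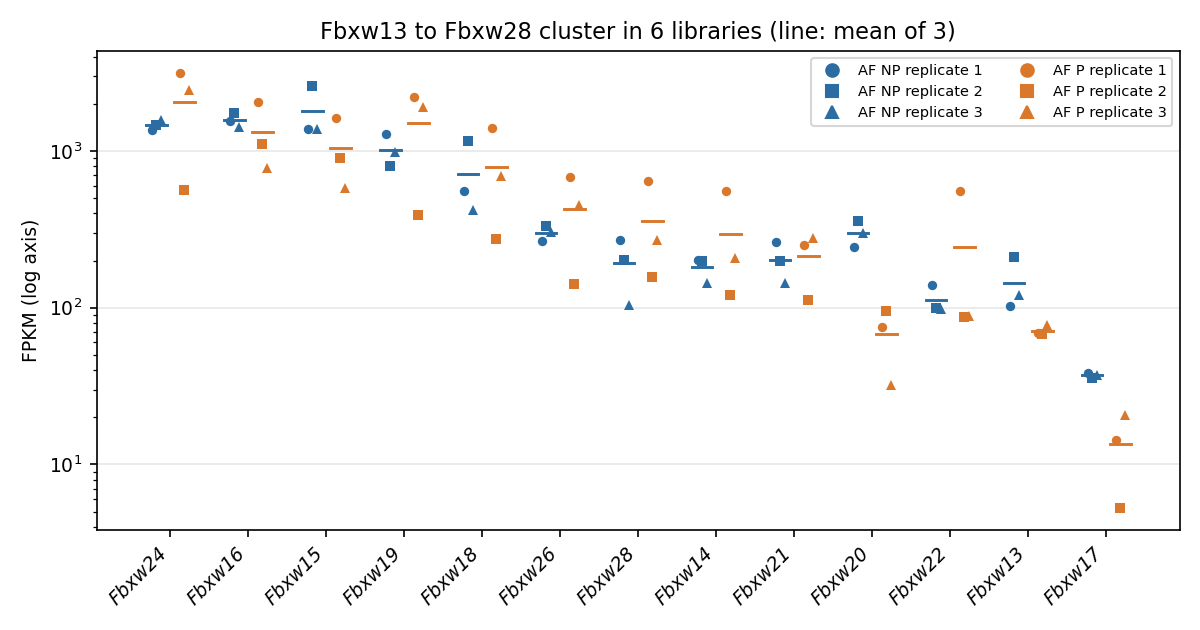
FPKM (log axis) of the 13 cluster genes, ordered by mean level, in the 3 AF NP (blue) and 3 AF P (orange) libraries, with circles, squares and triangles for replicates 1, 2 and 3 and a line at each mean of 3. The P libraries of most genes lie on both sides of NP, while *Fbxw20*, *Fbxw13* and *Fbxw17* are lower in all 3 P libraries.

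In the test of P against NP across all 10578 genes with a mean above 1 FPKM in either fraction, limma with Benjamini-Hochberg adjustment and a threshold of 0.1 called 190 genes lower in P (1.80%) and 2 higher (0.0189%). All 13 cluster genes were tested and 0 were called, 1 of them, *Fbxw20*, having an unadjusted p under 0.05, as did 15.8% of all genes. Groups that did not overlap were lower in P for 3 of the 13 and higher for 0, against 23.2% and 0.633% of all genes tested. The median log2 ratio was 0.03 over the cluster, with 6 genes below 0 and 7 above, and -1.03 over all genes tested. Of the 13 genes, 11 lay above that median. So did 10 of 12 oocyte markers (median -0.33) and 6 of the 7 tested Fbxw genes outside the cluster (median 0.16). The 932 genes with a mean above 100 FPKM had a median of -1.26, and the 12 chromosome 9 genes, all above that level, had a median of 0.10.

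The median of the cluster depended on single libraries. It was -0.19 without AF NP replicate 3, -0.11 without AF P replicate 3, -0.34 without AF P replicate 1, the shallowest library, and 0.60 without AF P replicate 2, against -1.34, -0.93, -1.03 and -1.20 over all genes in the same fits. Rescaling the libraries by median of ratios, by quantiles or to a common FPKM sum put the cluster at 1.03, 1.0 and 0.96 and all genes at -0.43, -0.22 and -0.50. The cluster was above the median of all genes under each of these scalings and removals, but by only 0.03 with no filter on low values, where the median of all genes was 0.00. Whether it was above or below 0 depended on the libraries used, and its distance above 0 depended on the scaling. In those 3 rescaled fits limma called 2 genes higher and between 1 and 4 lower, and no F-box member.

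**Figure D3:**
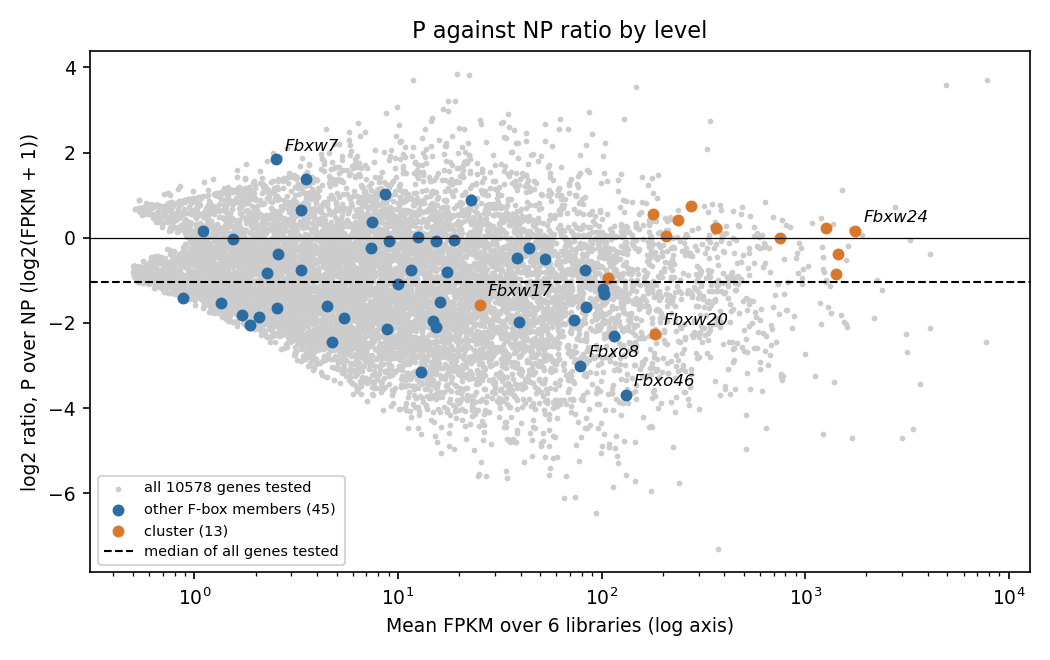
The log2 ratio of P over NP (y axis, log2(FPKM + 1) scale) against the mean FPKM over 6 libraries (x axis, log scale) for all 10578 genes tested (grey), the 45 other F-box members tested (blue) and the 13 cluster genes (orange). The dashed line is the median of all genes, -1.03, and 11 cluster genes lie above it, with *Fbxw20* and *Fbxw17* below.

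As a share of the cluster's own sum, no gene of the cluster passed the test between the fractions. *Fbxw20* held 3.19%, 3.80% and 4.26% of the cluster in AF NP replicates 1, 2 and 3 and 0.569%, 2.36% and 0.411% in AF P. *Fbxw17* held 0.501%, 0.377% and 0.528% in NP and 0.108%, 0.131% and 0.263% in P. *Fbxw14* held 2.63%, 2.10% and 2.06% in NP and 4.19%, 2.97% and 2.66% in P. The shares of these 3 genes did not overlap between the fractions, 2 lower and 1 higher in P, and those of the other 10 overlapped. After division of every gene by that sum, the limma adjusted p was 0.305 for *Fbxw20*, 0.582 for *Fbxw17* and 0.776 for *Fbxw14*. For *Fbxw14* the margin was narrow, and reads of *Fbxw14* and *Fbxw28* may be exchanged. Over all genes divided in the same way, 19.0% were lower and 0.756% higher without overlap, so the 2 of 13 lower are near the share of all genes. *Fbxw24* held between 14.1% and 31.3% and *Fbxw15* between 7.45% and 27.7%, and both ranges overlapped between the fractions.

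**Figure D4:**
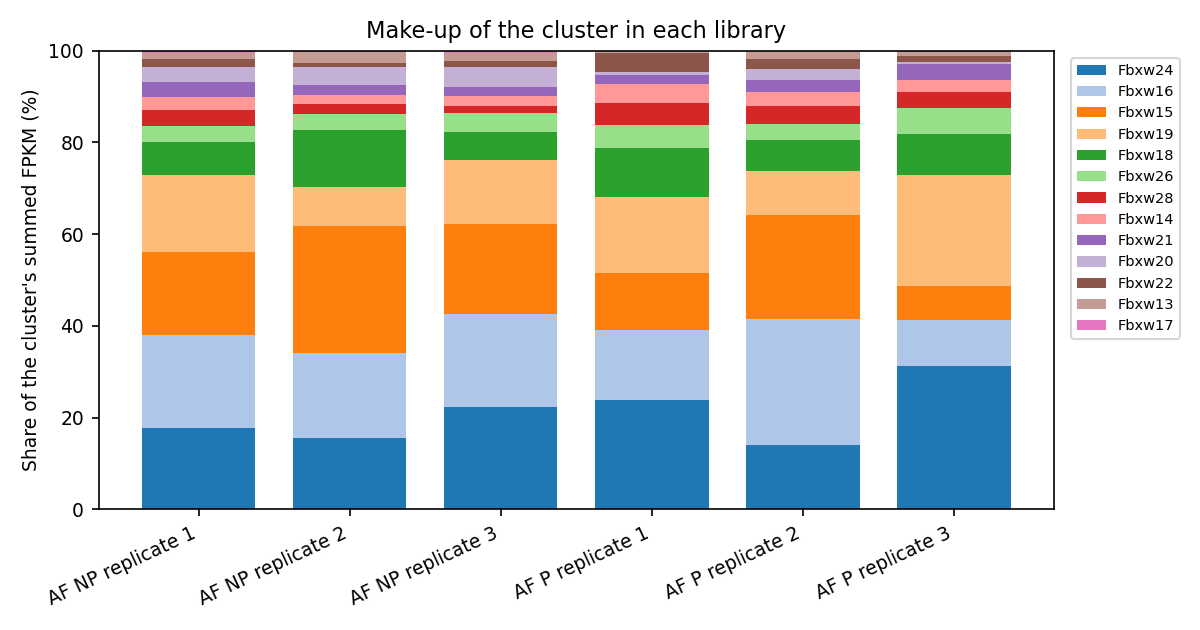
Share of the cluster's summed FPKM (%, y axis from 0 to 100) held by each of the 13 genes in each of the 6 libraries (x axis). *Fbxw24*, *Fbxw16*, *Fbxw15* and *Fbxw19* together hold 68.1% to 76.2% in every library, and the share of *Fbxw20* is between 0.411% and 2.36% in P against 3.19% to 4.26% in NP.

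The other members were much lower in level, and the median of their log2 ratios was near that of all genes, though not in each family. Of these 61 genes, 9 were listed at 0 in all 6 libraries, 25 were above 0 in some libraries and 27 in all 6. A mean above 1 FPKM was reached by 42 of them in NP and 38 in P, which with the cluster makes 55 and 51 of the 74 members. The 45 tested had a median log2 ratio of -1.09, against -1.03 over all genes, and 37 of them were below 0, next to 80.1% of all genes. Limma called 1 lower in P and 0 higher, next to 1.80% and 0.0189% of all genes. With the replicate number as a block, which pairs the NP and P libraries of one number, it called 2 lower and 0 higher, next to 6.27% and 0.0473% of all genes. Groups without overlap were lower in P for 15 and higher for 0 of the 45, next to 23.2% and 0.633%. By family, the median was -1.51 for 23 Fbxo genes, -1.32 for 15 Fbxl genes and 0.16 for the 7 Fbxw genes outside the cluster. The quantile scaling put the median of the 45 at 0.05.

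The member called was *Fbxo46* (chromosome 7, 19119859 to 19138261, plus strand). Its NP level was 214.5, 281.9 and 232 FPKM in replicates 1, 2 and 3, and its P level 14.1, 11.9 and 33.5 FPKM, so every NP library was above every P library. The log2 ratio was -3.68 (SE 0.86) and the limma adjusted p was 0.0496. It had the highest mean of the other members, and in NP it stood near the level of *Fbxw20*. Of its 50-base words, 8.75% also occur in a transcript of *Qpctl*. The call was lost without AF NP replicate 1 (adjusted p = 0.341), replicate 2 (0.317) or replicate 3 (0.165), with log2 ratios of -3.77, -3.57 and -3.71. When the genes tested were those of the full 6 libraries, it held only without AF P replicate 3 (adjusted p = 0.0959). It was also lost under the 3 rescalings, where the log2 ratio was between -2.82 and -2.70 and the limma adjusted p between 0.422 and 0.595.

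Next in level came *Fbxo18*, a DNA helicase that acts on recombination intermediates, at 232.7, 149 and 105 FPKM in NP and at 99.0, 103 and 1.89 FPKM in P. Its groups did not overlap, by a narrow margin between AF NP replicate 3 and AF P replicate 2. *Fbxl19*, which binds unmethylated CpG islands, was at 147 ± 67.7 FPKM in NP and 59.2 ± 31.7 FPKM in P (SD, n = 3), with overlap. *Fbxw4*, the gene of the dactylaplasia locus, was at 144 ± 69.4 and 58.4 ± 14.9 FPKM without overlap. *Fbxo8*, which carries a Sec7 domain, was at 176.5, 122 and 94.0 FPKM in NP and at 40.8, 34.2 and 1.73 FPKM in P. Its log2 ratio was -3.0 (SE 1.05, limma adjusted p = 0.176), and without AF P replicate 1 it was -3.70 and past the threshold (adjusted p = 0.0966), though not over the genes tested in the full 6 libraries (adjusted p = 0.258). Without AF P replicate 3 it was -1.73 (adjusted p = 0.35). With the replicate number as a block, *Fbxo8* was past the threshold (-3.0, SE 0.95, limma adjusted p = 0.0808).

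Of the other 7 genes among the 12 highest, *Fbxl6* and *Fbxo40* were lower in every P library. *Fbxl6* was at 118 ± 56.2 FPKM in NP and 28.4 ± 5.44 FPKM in P, and *Fbxo40*, known from muscle, at 63.5 ± 34.9 and 15.0 ± 7.14 FPKM (SD, n = 3). The groups of *Fbxo34*, *Fbxo21*, *Fbxw8*, *Fbxo28* and *Fbxo33* overlapped. Their means in NP were between 48.9 FPKM for *Fbxo28* and 123 FPKM for *Fbxo34*, and their means in P between 26.3 FPKM for *Fbxo33* and 63.9 FPKM for *Fbxo21*. Of the 12 genes, 6 had groups without overlap, and each of these was lower in P, next to 23.2% lower and 0.633% higher without overlap among all genes tested.

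**Figure D5:**
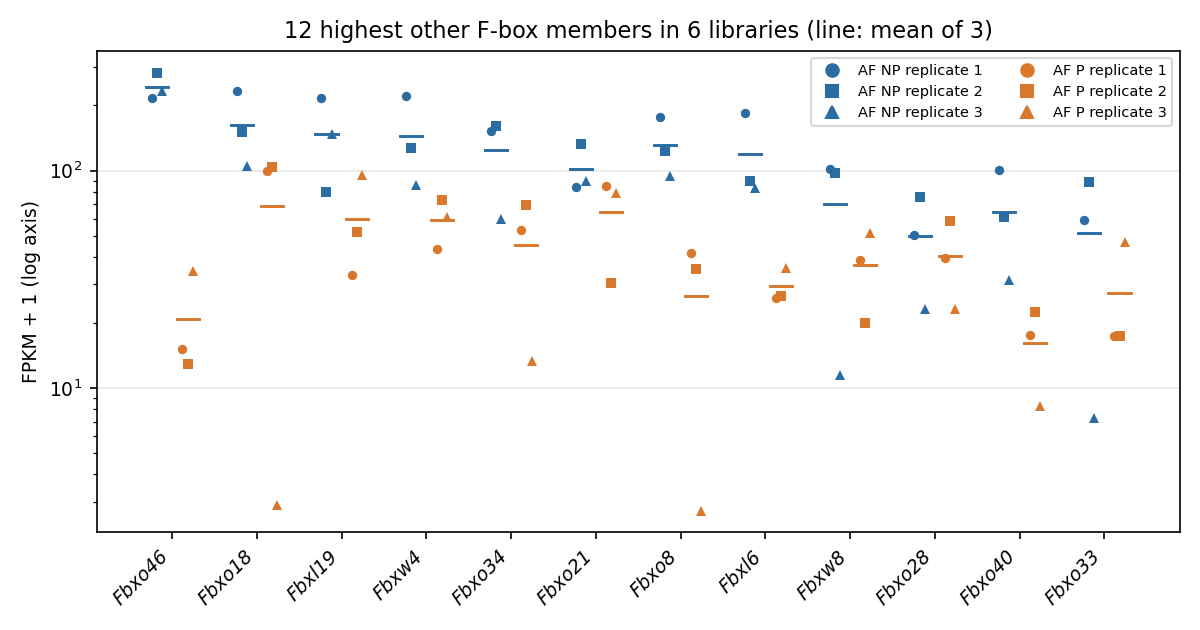
FPKM + 1 (log axis) of the 12 other F-box members with the highest mean, in the 3 AF NP (blue) and 3 AF P (orange) libraries, with circles, squares and triangles for replicates 1, 2 and 3 and a line at each mean of 3. *Fbxo46* has the widest gap between the fractions, and *Fbxo18* and *Fbxo8* drop to 1.89 and 1.73 FPKM in AF P replicate 3.

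Members with well-known substrates were mostly at low levels. Among those directed at cyclins, *Fbxw7*, which targets cyclin E, was listed at 0, 0.0863 and 0 FPKM in NP and at 12.1, 2.86 and 0 FPKM in P. The 12.1 FPKM stand for about 14 reads, and the limit set by 3 reads in that library is 2.61 FPKM. The log2 ratio was 1.85 (SE 0.99, limma adjusted p = 0.360), the highest of the other members, and lay between 0.80 and 3.64 over the alternatives, since it rests on values near 0. *Fbxo31*, which targets cyclin D1, was at 33.9, 24.5 and 12.7 FPKM in NP and at 0, 2.82 and 3.56 FPKM in P, with a log2 ratio of -3.15 (SE 1.22, limma adjusted p = 0.214). *Fbxo4* was listed at 0 in all 6 libraries, and *Fbxw8*, the partner of *Cul7*, overlapped as given above. *Fbxw11*, which encodes beta-TrCP2, was at 23.1, 16.8 and 8.80 FPKM in NP and at 33.9, 32.0 and 22.1 FPKM in P, with a log2 ratio of 0.89 (SE 1.02, limma adjusted p = 0.640), and only AF NP replicate 1 reached the range of P.

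Both genes linked to oocyte meiosis were present in every library, *Fbxo30* at 15.8 ± 7.63 FPKM in NP and 21.8 ± 21.1 FPKM in P and *Fbxo34* at 123 ± 55.8 and 44.5 ± 29.0 FPKM (SD, n = 3). The genes of iron sensing and mitochondria were present in every library as well, and all 3 overlapped. *Fbxl5* was at 9.57, 20.4 and 7.26 FPKM in NP and at 29.3, 24.97 and 1.05 FPKM in P. *Fbxl4* was at 0.393, 2.04 and 13.03 FPKM in NP and at 29.7, 1.71 and 5.19 FPKM in P, and *Fbxo7* at 4.45, 8.70 and 3.35 FPKM in NP and at 24.7, 0.425 and 2.71 FPKM in P. Each had its highest value in AF P replicate 1, the shallowest library. *Fbxl21* was at 2.36, 0.507 and 7.39 FPKM in NP and listed at 0 in P. Of the glycoprotein-binding members, *Fbxo2*, *Fbxo6* and *Fbxo27* were listed at 0 in all 6 libraries, *Fbxo44* was at 0.164 FPKM in AF NP replicate 3 alone, and *Fbxo17* was at 5.75 ± 1.35 FPKM in NP and at 9.78, 0 and 0 FPKM in P. *Fbxo32*, known from muscle atrophy, was listed at 0 throughout. *Fbxo15*, a marker of embryonic stem cells, was at 2.81, 1.27 and 1.20 FPKM in NP and listed at 0 in P. A level of a few FPKM lies under the 9.19 FPKM that 3 reads of a 2 kb transcript are worth in AF P replicate 1. The remaining 32 other members were at low levels as well. Of these, 22 were tested, with means between 0.869 and 24.2 FPKM in NP and between 0 and 13.3 FPKM in P and a median log2 ratio of -0.95, and the groups of 6 did not overlap, all lower in P, a share near the 23.2% of all genes. A further 6 had values of at most 1.78 FPKM in any library and 4 were listed at 0 throughout.

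The partners of F-box proteins were measured in the same libraries. Of 31 genes of SCF cores, their regulators, the COP9 signalosome and F-box genes with other symbols, 30 were tested, limma called 0 in either direction, next to 1.80% lower and 0.0189% higher over all genes, and 4 had an unadjusted p under 0.05, next to 15.8%. Their median log2 ratio was -0.71. *Skp1a*, the adaptor, was at 588, 408 and 696 FPKM in NP and at 1002, 335 and 525 FPKM in P, a log2 ratio of 0.03 (SE 0.60). *Rbx1*, the RING subunit, was at 156, 151 and 442 FPKM in NP and at 173, 55.0 and 354 FPKM in P, a log2 ratio of -0.54 (SE 0.80). Both subunits overlapped between the fractions.

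*Cul1*, the scaffold, was at 53.2, 30.4 and 31.4 FPKM in NP and at 101, 85.7 and 69.0 FPKM in P, and was the only gene of the list that was higher in every P library. Its log2 ratio was 1.16 (SE 0.87, limma adjusted p = 0.490), and it was between 1.02 and 1.42 with any library left out. Over all genes, 0.633% were higher without overlap. Lower in every P library were 6 genes of the list, a share near the 23.2% of all genes, among them *Cdc34*, an SCF ubiquitin-conjugating enzyme, at 645, 936 and 1626 FPKM in NP and at 547, 20.1 and 272 FPKM in P (log2 ratio -2.76, SE 0.87, limma adjusted p = 0.137). It was past the threshold without AF P replicate 1 or without AF P replicate 3, at -3.71 and -3.21, and at -1.36 (adjusted p = 0.314) without AF P replicate 2. Over the genes tested in the full 6 libraries, no removal put it past the threshold (adjusted p between 0.211 and 0.534). With the replicate number as a block it was past it (SE 0.75, limma adjusted p = 0.0425), 1 of the 30 genes of the list, next to 6.27% lower over all genes. Of the 6 F-box genes with other symbols, *Kdm2a* was lower in every P library (in P it was at 0, 0.279 and 0.513 FPKM, in NP at 6.17, 2.25 and 13.2 FPKM), and the other 5 overlapped, among them *Btrc* (144 ± 113 FPKM in NP and 66.1 ± 41.7 in P), *Ccnf* (79.6 ± 22.6 and 49.1 ± 65.7) and *Skp2* (1.598 ± 1.303 and 1.13 ± 1.96; SD, n = 3). The cluster's summed FPKM was above that of these 31 genes together, which was between 3694 and 4614 FPKM in NP and between 1426 and 2888 FPKM in P.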

How the data were processed

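RNA of AF oocytes was measured in 3 NP and 3 P libraries. The authors depleted rRNA, amplified cDNA by whole transcriptome amplification, aligned reads to GRCm38 and deposited FPKM per gene, made in Seqmonk. The submitters' processing notes name Trim Galore 0.4.1 and HISAT2 2.0.5. Annotation release, strand setting and the treatment of reads that match several genes are not given in sources used here. Columns of the authors' mean per fraction were not used.

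Of 25965 rows, 66 repeated symbols were dropped, keeping the row with the highest mean (no F-box symbol was repeated). The fractions were tested against each other, two-sided, on log2(FPKM + 1) by limma-trend (limma 3.58.1, R 4.3.3) for genes with a mean above 1 FPKM in NP or P, so fold changes of low genes are understated. The median residual SD was 1.22 on the log2 scale. At 3 against 3, the smallest p of an exact permutation test for one gene is 0.1. Each sample's gradient gave an NP and a P pool, and the replicate number is taken to mark the sample, which no source states outright. Deviations from the group means correlated at 0.063, 0.099 and 0.116 between libraries of one number, each library being highest with its own number. Nothing says that the replicates came from separate females, so p-values measure the spread between these libraries. The fit was tested on simulated data.

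Depth was estimated as the step that makes low values whole within 0.02 reads at GENCODE M21 exon lengths. Between 60.1% and 67.0% of low values were whole, too few for a count test, and read numbers are approximate and cover counting error only. Transcripts were aligned in Biopython 1.88. The members, lists and rules were chosen with earlier results of these data known. Named genes are all cluster genes, members past the threshold, the 12 highest other members and lists by function. A gene of these lists is not reported here. As alternatives, the pseudocount, filter, scaling and threshold (0.05) were varied, the trend was dropped, the replicate number entered as a block, and single libraries were left out. Added after the data were seen were the filter of all 6 libraries kept when one is left out, the chromosome 9 genes alone, and division by the cluster's sum.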

Additional observations from a re-analysis of the deposited data

How the results depend on the processing

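Over all genes, 192 calls became 69 with a pseudocount of 0.1, 1 with no filter, 3 under median of ratios, 4 under quantiles, 6 with a common FPKM sum, 15 with no trend, 65 at a threshold of 0.05 and between 1 and 331 with a library left out, or between 0 and 55 with the filter of all 6 libraries kept. F-box calls went from 1 to 0 with no filter, no trend or any rescaling, and were between 0 and 2 with a library left out and between 0 and 1 with the filter kept. With the replicate number as a block, 5 genes were higher and 663 lower (668 calls), and 2 F-box members were called, *Fbxo46* (adjusted p = 0.0215) and *Fbxo8* (-3.0, 0.0808), besides *Cdc34* (-2.76). The block changed no other call of a gene named here. The median of the other members was -1.67 and -0.56 with pseudocounts of 0.1 and 5 and -0.50 with no filter, where that of all genes was -1.73, -0.52 and 0.00, and -0.28, 0.05 and -0.39 under the 3 rescalings (median of ratios, quantiles, common sum). That of the SCF genes was -1.24 with a pseudocount of 0.1, 0.00, 0.10 and -0.06 under the rescalings, and between -1.20 and -0.44 with a library left out. The cluster's lead over the median of all genes, 1.06, was 0.55 with a pseudocount of 5 and 0.03 with no filter. The cluster's median (-0.34 to 1.03) moved by less than 1.11, the SD over the 3 pairs of one replicate number (0.80, -1.24 and 0.53). Its share of F-box FPKM moved by less than the SD between libraries. The number of members above 1 FPKM was between 54 and 57 in NP and between 44 and 51 in P. A mean above 5 FPKM was reached by 44 members in NP and 40 in P. Rescaling turned the ratio of *Fbxw13* to 0.05 and 0.07 (median of ratios, quantiles), *Fbxw16* to 0.63, 0.42 and 0.56, *Fbxw18* to 0.98, 0.83 and 0.92, *Rbx1* to 0.46, 0.44 and 0.39, and *Fbxw15* to 0.16 and 0.09 (median of ratios, common sum). These 13 values kept their side of the median of all genes. Division by the cluster's sum put *Fbxw18* at 0.07. With a library left out, ratios crossed 0 for *Fbxw21* (-0.21 to 0.44), *Fbxw14* (-0.18 to 0.93), *Fbxw22* (-0.34 to 0.99), *Fbxw19* (-0.22 to 1.04), *Fbxw24* (-0.31 to 0.94), *Fbxw18* (-0.57 to 0.60), *Fbxw26* (-0.24 to 0.89), *Skp1a* (-0.39 to 0.40) and *Rbx1* (-1.15 to 0.18). The causes were not tested. Depth limits AF P replicate 1 most.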
